A study of Mus musculus with 6 samples.

Results

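The nuclear genes for respiratory complexes III and IV, cytochrome c and ATP synthase were followed in KMWT1 cells, a mouse glioma line, after siRNA knockdown of the transcription factor YY1. Members were all gene symbols that begin with Uqcr, with Cox followed by a digit from 4 to 8, or with Atp5, together with Cyc1 and Cycs. This gave 45 of 24982 symbols, of which 39 had at least 60 counts summed over the 6 samples and 6 did not. The 39 comprised 9 genes of complex III, Cycs, 12 genes of complex IV, 16 genes of ATP synthase and Atp5s, whose product is not a subunit and which is given apart. RNA-seq had been run on 3 samples transfected with a pool of siRNAs against YY1 (samples 4, 5 and 6) and on 3 transfected with a control siRNA (samples 1, 2 and 3). All 6 were taken 48 hours after transfection, from a single line grown in the same serum-containing medium. Nothing in the labels says whether each sample was a culture of its own, so the spread that p-values are set against may be technical.

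Complex III passes electrons from ubiquinol to cytochrome c, and complex IV, cytochrome c oxidase, passes them from cytochrome c to oxygen. Both move protons across the inner mitochondrial membrane, and ATP synthase uses the returning protons to make ATP. Each complex joins many nuclear-encoded subunits to a smaller number encoded in mitochondrial DNA, and the latter were not found under the symbols searched. YY1 is known to work with PGC-1alpha on mitochondrial genes in muscle, and YY1 binding has been described at the mouse Cox5b promoter and the bovine Cox7c promoter.

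The 6 libraries held 15738457 counts in genes (YY1 siRNA sample 6) to 20644057 (control siRNA sample 1). Levels are given as CPM, counts scaled to a common library size with TMM factors, and every pair of replicates differed by more than counting noise. Of 7 glioma stem and progenitor markers, 5 stood at 10 CPM or more, while Olig2 and Prom1 were at 0. All 4 microglia and macrophage markers and 4 of 6 astrocyte markers stood under 1 CPM, and 3 of 4 fibroblast and pericyte markers at 10 CPM or more. The astrocyte marker Gja1 averaged 619 CPM over the 6 libraries, and 1 of 3 endothelium markers, Cdh5, averaged 50.3 CPM. Of 4 neuron and 4 oligodendrocyte markers, 0 reached 10 CPM. Yy1 fell to 81.2, 77.6 and 78.6 CPM in YY1 siRNA samples 4, 5 and 6, against 127, 128 and 126 CPM in control siRNA samples 1, 2 and 3 (62.3% of control, edgeR quasi-likelihood adjusted p = 0.00154).

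No gene of complexes III and IV, cytochrome c or ATP synthase changed past the threshold with the knockdown. With edgeR's quasi-likelihood test, adjusted over 12148 genes, 0 of the 39 passed an adjusted p of 0.05, against 0.00823% of all genes tested, which is Yy1 alone. At an unadjusted p under 0.05 stood 2 members (10.8% of all genes), both higher in YY1 siRNA samples (5.38% of all genes) and 0 lower (5.46% of all genes). DESeq2 also called 0 members at its adjusted threshold (0.148% of all genes). It had 8 at an unadjusted p under 0.05 (5.53% of all genes in that fit), of which 7 were higher. That fit also held genes with counts too low for the edgeR test. Of the 12148 genes tested with edgeR, 924 stood under that p in DESeq2. The groups overlapped for all 39 members, while they were apart for 7.36% of all genes tested with YY1 siRNA higher and for 8.91% with YY1 siRNA lower. The 95% interval of the change held no change for 37 members. It lay within 2-fold in either direction for 37 and within 1.5-fold for 21.

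Most fitted changes nevertheless had the same sign. They lay above 0 for 32 of 39 members (50.2% of all genes) and below 0 for 7 (49.8% of all genes), with a median log2 fold change of 0.22 for the 39 against 0.001 for all genes tested. The median was 0.13 for complex III, 0.27 for complex IV and 0.23 for ATP synthase. YY1 siRNA sample 6 was the highest of the 6 libraries for 31 of the 39 members (27.1% of all genes). Without that sample, the median of the 39 was 0.023 and 25 of them lay above 0 (49.0% of all genes). It was then 0.010 for complex III, 0.023 for complex IV and 0.052 for ATP synthase.

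**Figure D1:**
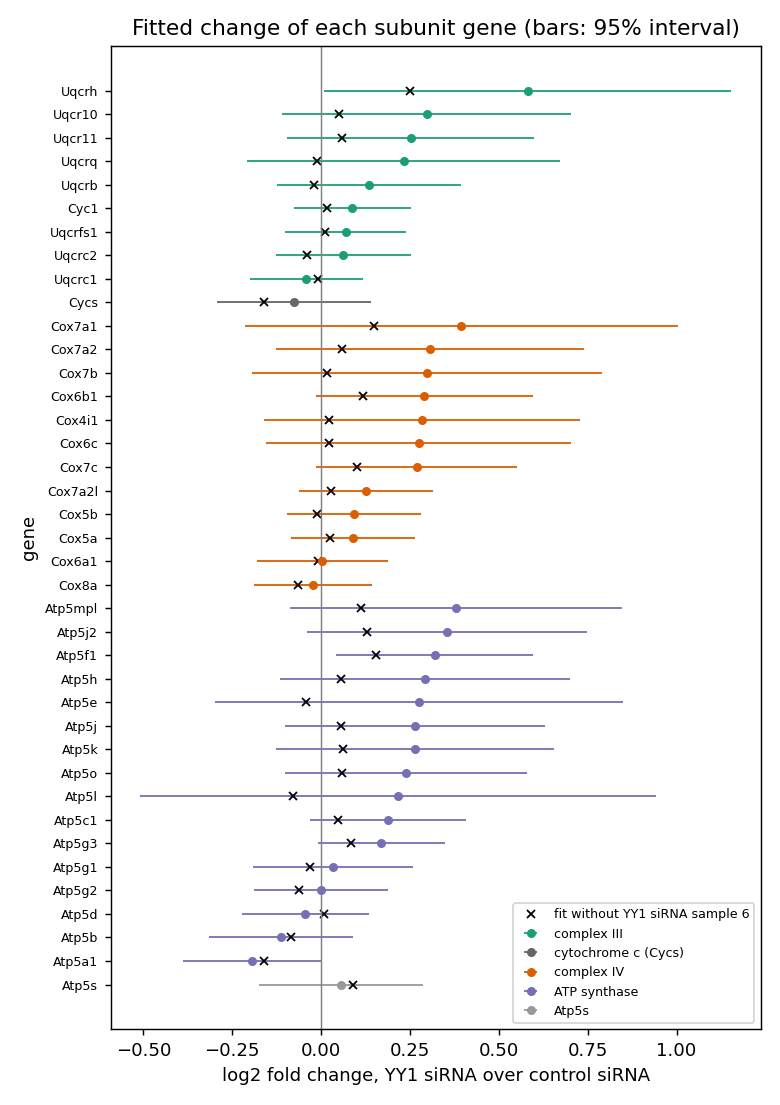
Fitted log2 fold change of each of the 39 genes, YY1 siRNA over control siRNA, with its 95% interval (coloured points and bars, 6 libraries) and the value fitted without YY1 siRNA sample 6 (crosses). Intervals cross 0 for 37 genes, and the crosses lie closer to 0 than the points for most genes, with a median of 0.023 against 0.22.

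Complex III has a catalytic core and a set of small subunits around it. The largest fitted change of all 39 genes was that of Uqcrh, the hinge protein that helps dock cytochrome c. Uqcrh stood at 245, 272 and 453 CPM in YY1 siRNA samples 4, 5 and 6, against 185, 204 and 260 CPM in control siRNA samples 1, 2 and 3. Sample 6 lay far above the other 5, and sample 4 lay below control sample 3, so the groups overlapped. The log2 fold change was 0.58 (SE 0.243, unadjusted p = 0.0474, edgeR adjusted p = 0.457), and it was 0.25 without sample 6. The gene lies on chromosome 4 from 116066965 to 116075071 (mm10, minus strand), and none of its transcript's 50-base words occur in transcripts of another annotated gene.

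The other small subunits of complex III had lower fitted changes. Uqcr10 had 110, 109 and 169 CPM in YY1 siRNA samples and 97.0, 104 and 114 CPM in control siRNA samples. Uqcr11 had 81.6, 77.3 and 113 CPM in YY1 siRNA samples and 68.3, 73.9 and 85.8 CPM in control siRNA samples. Uqcrq, a ubiquinone-binding subunit, had 149, 158 and 236 CPM in YY1 siRNA samples and 134, 150 and 177 CPM in control siRNA samples. In each of these genes only sample 6 lay above all 3 control samples, and control sample 3 lay above samples 4 and 5. Uqcrb, a further small subunit, had 85.9, 74.0 and 106 CPM in YY1 siRNA samples, against 76.6, 80.8 and 85.1 CPM in control siRNA samples. The log2 fold changes were 0.30 for Uqcr10, 0.25 for Uqcr11, 0.23 for Uqcrq and 0.13 for Uqcrb (edgeR adjusted p = 0.544, 0.546, 0.654 and 0.670).

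The core of complex III was nearly level between the groups. Cyc1, cytochrome c1, which hands electrons to cytochrome c, had 132, 121 and 143 CPM in YY1 siRNA samples, against 121, 123 and 127 CPM in control siRNA samples. Uqcrfs1, the Rieske iron-sulfur protein, had 93.5, 82.9 and 98.3 CPM in YY1 siRNA samples, against 83.7, 91.4 and 86.8 CPM in control siRNA samples. For both, sample 6 was the highest of the 6 libraries, and sample 5 was the lowest for Uqcrfs1. The structural core gene Uqcrc2 had 194, 180 and 226 CPM in YY1 siRNA samples, against 182, 191 and 202 CPM in control siRNA samples. Uqcrc1, its partner, had 159, 142 and 138 CPM in YY1 siRNA samples, against 153, 153 and 145 CPM in control siRNA samples. It was the only one of the 9 complex III genes with a fitted change below 0 (-0.041, edgeR adjusted p = 0.849), and sample 6 was its lowest library. The 4 core and catalytic genes had a median log2 fold change of 0.066, against 0.25 for the 5 small subunits. This split was made after their values were known. It is also a split by annotated transcript, with median lengths of 1586.5 nt for the core and catalytic genes and 474.5 nt for the small subunits. Without sample 6 the median changes were 0.0 and 0.051, and in a fit adjusted for length and GC they were 0.01 and 0.097. Whether the split follows subunit role or transcript length was not tested.

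Cycs encodes cytochrome c, the soluble carrier between complexes III and IV and a trigger of apoptosis when it leaves mitochondria. It had 19.8, 16.9 and 21.5 CPM in YY1 siRNA samples, against 19.2, 21.0 and 21.0 CPM in control siRNA samples. The samples of the groups were interleaved (log2 fold change -0.076, SE 0.0996, edgeR adjusted p = 0.784). Of the 50-base words in its transcript, 28.5% also occur in transcripts of other annotated genes, 76 in all, so its count is uncertain.

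**Figure D2:**
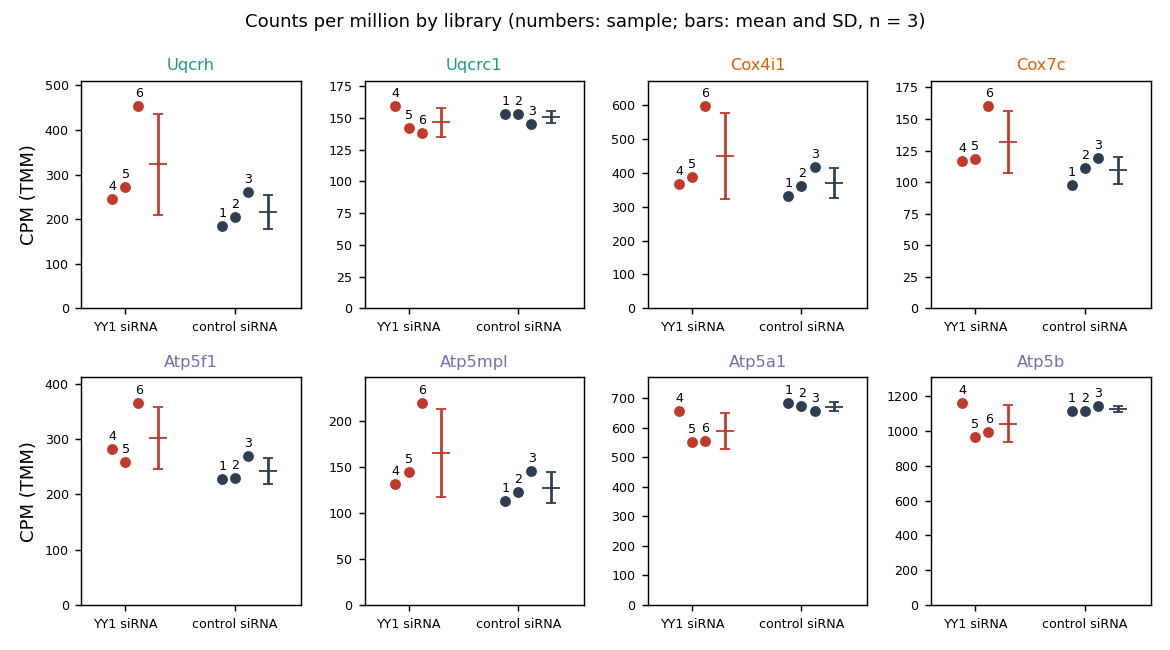
CPM of 8 member genes in each library, with YY1 siRNA samples 4, 5 and 6 (red) left of control siRNA samples 1, 2 and 3 (dark), each point numbered by its sample, and the mean and SD of each group. Sample 6 stands above the other libraries for Uqcrh, Cox4i1, Cox7c, Atp5f1 and Atp5mpl but not for Uqcrc1, Atp5a1 or Atp5b.

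In complex IV, whose catalytic subunits are encoded in mitochondrial DNA, the nuclear subunits support, regulate and assemble the enzyme. Cox4i1, the largest nuclear subunit, had 366, 386 and 595 CPM in YY1 siRNA samples, against 330, 360 and 417 CPM in control siRNA samples. Cox7c, a small membrane subunit, had 117, 118 and 160 CPM in YY1 siRNA samples, against 97.7, 111 and 119 CPM in control siRNA samples. Cox6b1, which faces the intermembrane space, had 183, 177 and 247 CPM in YY1 siRNA samples, against 148, 161 and 187 CPM in control siRNA samples. In all 3 genes sample 6 stood alone at the top and control sample 3 came second. Cox7c and Cox6b1 had the smallest p-values of the complex (unadjusted p = 0.0591 and 0.0598, edgeR adjusted p = 0.473 for each), with log2 fold changes of 0.27 (SE 0.126) and 0.29 (SE 0.135). Without sample 6 these were 0.10 and 0.12, and that of Cox4i1 was 0.022 in place of 0.28.

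Cox5a and Cox5b, which lie on the matrix side, differed less between libraries. Cox5b had 129, 117 and 149 CPM in YY1 siRNA samples, against 120, 121 and 129 CPM in control siRNA samples. Cox5a had 134, 116 and 141 CPM in YY1 siRNA samples, against 117, 126 and 124 CPM in control siRNA samples. For both genes sample 5 was the lowest library and sample 6 the highest. The fold of YY1 siRNA over control siRNA was 1.07 for Cox5b (95% interval 0.935 to 1.22) and 1.06 for Cox5a (0.943 to 1.20). Cox8a, a small membrane subunit, had 125, 107 and 125 CPM in YY1 siRNA samples, against 117, 123 and 123 CPM in control siRNA samples. Cox6a1 had 160, 128 and 146 CPM in YY1 siRNA samples, against 143, 139 and 152 CPM in control siRNA samples. These 2 genes were the most level, at 0.985-fold (0.878 to 1.10) and 1.00-fold (0.882 to 1.14). Of the remaining nuclear subunits, Cox7b had 225, 233 and 373 CPM in YY1 siRNA samples and 202, 208 and 266 CPM in control siRNA samples. Cox6c had 225, 231 and 355 CPM in YY1 siRNA samples and 203, 216 and 251 CPM in control siRNA samples. Ndufa4, a complex IV subunit once placed in complex I and named outside the symbols above, had 102, 111 and 176 CPM in YY1 siRNA samples and 82.9, 94.3 and 118 CPM in control siRNA samples. The order of libraries in all 3 was headed by sample 6 and control sample 3 (log2 fold changes 0.30, 0.28 and 0.40, edgeR adjusted p = 0.606, 0.588 and 0.528).

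Several complex IV subunits exist as isoform pairs, and KMWT1 cells used the broadly expressed form in each. The lung and hypoxia isoform Cox4i2 had 1 count over the 6 libraries. Of the testis isoforms, Cox6b2 and Cox8c had 0 counts and Cox7b2 had 7. Of the muscle and heart isoforms, Cox8b had 2 counts and Cox6a2 had 25, the highest total below the minimum of 60. At this depth 3 counts equal 0.145 to 0.191 CPM. The muscle isoform Cox7a1, with 131 counts in all, was the member nearest above the minimum. It stood at 1.10, 1.17 and 1.83 CPM in YY1 siRNA samples, against 1.11, 0.779 and 1.16 CPM in control siRNA samples. Its broadly expressed counterpart Cox7a2 had 186, 187 and 288 CPM in YY1 siRNA samples, against 159, 172 and 203 CPM in control siRNA samples. Per kilobase of annotated transcript, the mean levels in YY1 siRNA and control siRNA samples were 3.11 and 2.32 CPM for Cox7a1 and 334 and 270 CPM for Cox7a2. Cox7a2l, a related protein that joins complexes III and IV into supercomplexes, had 134, 124 and 154 CPM in YY1 siRNA samples, against 117, 131 and 130 CPM in control siRNA samples. Neither Cox7a1, Cox7a2 nor Cox7a2l passed the test (edgeR adjusted p = 0.595, 0.552 and 0.585).

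ATP synthase consists of the F1 head, which makes ATP, a rotating ring of c subunits, a peripheral stalk and small membrane subunits. Atp5b, the catalytic beta subunit, had the highest CPM of the 39 genes in both groups. Per kilobase of annotated transcript it averaged 543 CPM in YY1 siRNA samples, below Uqcrh at 681 and Cox4i1 at 595, and 587 CPM in control siRNA samples, above Cox4i1 at 488 and Uqcrh at 455. Atp5b had 1163, 967 and 993 CPM in YY1 siRNA samples, against 1115, 1114 and 1146 CPM in control siRNA samples. Atp5a1, the alpha subunit, had 657, 550 and 553 CPM in YY1 siRNA samples, against 684, 674 and 655 CPM in control siRNA samples. In both genes samples 5 and 6 lay below all 3 control samples, and sample 4 did not. Atp5a1 had the lowest fitted change of the 39 (log2 fold change -0.19, SE 0.0896, unadjusted p = 0.0512, edgeR adjusted p = 0.463), and it was -0.16 without sample 6. Atp5a1 shares its locus with Haus1 on the other strand, and no source used here says whether the counting was strand-specific.

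Of the remaining F1 subunits, Atp5d shared that sign, and Atp5c1 and Atp5e did not. Atp5c1, the gamma subunit that forms the shaft, had 278, 261 and 350 CPM in YY1 siRNA samples, against 249, 261 and 270 CPM in control siRNA samples. Atp5d, the delta subunit, had 240, 209 and 198 CPM in YY1 siRNA samples, against 224, 231 and 212 CPM in control siRNA samples. Atp5e, the epsilon subunit, had 173, 187 and 310 CPM in YY1 siRNA samples, against 154, 171 and 228 CPM in control siRNA samples. Sample 6 was thus the highest library for Atp5c1 and Atp5e and the lowest for Atp5d. Of the 5 F1 genes, 2 had a fitted change above 0 and 3 below 0, with a median of -0.044.

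All 4 genes of the peripheral stalk and all 4 tested genes of the small membrane subunits had fitted changes above 0, with medians of 0.28 and 0.31. Without sample 6 these medians were 0.058 and 0.088. The smallest p of all 39 members was that of Atp5f1, subunit b of the stalk. It had 283, 259 and 366 CPM in YY1 siRNA samples, against 228, 230 and 269 CPM in control siRNA samples. Samples 4 and 6 lay above all 3 controls, while sample 5 lay below control sample 3. The log2 fold change was 0.32 (SE 0.124, unadjusted p = 0.0279, edgeR adjusted p = 0.412), and it was 0.15 without sample 6. Atp5f1 lies on chromosome 3 from 105942698 to 105960099 (mm10, minus strand), shares its locus with Wdr77 on the other strand and has 38.7% of its 50-base words in common with transcripts of other genes, so its count is uncertain.

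Among the membrane subunits, Atp5j2, subunit f, had 154, 158 and 232 CPM in YY1 siRNA samples, against 131, 132 and 162 CPM in control siRNA samples. Atp5mpl, a small proteolipid, had 131, 145 and 220 CPM in YY1 siRNA samples, against 113, 123 and 146 CPM in control siRNA samples. In both, samples 4 and 5 lay below control sample 3 and only sample 6 above it. Of the other stalk genes, Atp5h, subunit d, had 194, 186 and 289 CPM in YY1 siRNA samples, against 162, 180 and 204 CPM in control siRNA samples. Atp5o, which links the stalk to the head, had 109, 103 and 147 CPM in YY1 siRNA samples, against 89.7, 97.9 and 116 CPM in control siRNA samples. The order of libraries was the same in both, with control sample 3 above samples 4 and 5. Atp5h, Atp5j and Atp5o, and the membrane gene Atp5k, had log2 fold changes of 0.24 to 0.29 (edgeR adjusted p = 0.546 to 0.574). Usmg5, a further membrane subunit of ATP synthase that the symbols above do not catch, had 163, 181 and 306 CPM in YY1 siRNA samples, against 139, 144 and 193 CPM in control siRNA samples (log2 fold change 0.45, edgeR adjusted p = 0.529).

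Atp5l, subunit g, stood apart in level. It had 1.15, 1.01 and 1.89 CPM in YY1 siRNA samples, against 1.15, 0.675 and 1.59 CPM in control siRNA samples. Per kilobase that is 2.49 CPM in YY1 siRNA and 2.09 CPM in control siRNA samples, where its neighbour in the membrane, Atp5k, stood at 341 and 284 CPM. Of the 50-base words in the Atp5l transcript, 84.8% also occur in transcripts of other annotated genes, 14 in all, the largest share among the 39 members, ahead of Cox7c at 53.0% and Atp5h at 50.5%. A share over 10% was found for 18 of the 39 members, Uqcrb, Cox5a and Cox5b among them, whose counts are uncertain as well. No source used here says how reads with several matches were counted, and the part of shared sequence in the low level of Atp5l was not tested.

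Atp5g1, Atp5g2 and Atp5g3 encode c subunits that are identical once their targeting sequences are removed. Atp5g3 had 249, 236 and 283 CPM in YY1 siRNA samples, against 222, 220 and 241 CPM in control siRNA samples. Atp5g1 had 33.7, 28.5 and 35.1 CPM in YY1 siRNA samples, against 29.3, 35.9 and 29.7 CPM in control siRNA samples. Atp5g2 had 33.3, 30.8 and 35.9 CPM in YY1 siRNA samples, against 32.0, 36.3 and 31.5 CPM in control siRNA samples. Atp5g3 thus held 78.8%, 79.9% and 79.9% of the counts of the 3 genes in YY1 siRNA samples, against 78.3%, 75.2% and 79.7% in control siRNA samples. The fold of YY1 siRNA over control siRNA was 1.13 for Atp5g3 (95% interval 0.994 to 1.27), 1.02 for Atp5g1 (0.876 to 1.20) and 1.00 for Atp5g2 (0.877 to 1.14). Atp5g2 shares 46.4% of its 50-base words with 2 other genes, so its counts are uncertain. Atp5s, a gene named for a coupling factor, averaged 9.54 ± 0.678 CPM in YY1 siRNA samples and 9.195 ± 0.512 CPM in control siRNA samples (SD, n = 3 each).

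Within ATP synthase, the counts of Atp5a1 and Atp5b and those of the other subunit genes varied differently between libraries. The 14 other subunit genes summed to 2060, 1977 and 2725 CPM in YY1 siRNA samples, against 1793, 1873 and 2106 CPM in control siRNA samples. Atp5a1 and Atp5b together summed to 1820, 1517 and 1547 CPM in YY1 siRNA samples, against 1799, 1787 and 1800 CPM in control siRNA samples. The ratio of the first sum to the second was 1.13, 1.30 and 1.76 in YY1 siRNA samples, against 0.996, 1.05 and 1.17 in control siRNA samples. Samples 5 and 6 lay above all 3 controls in this ratio, and sample 4 lay below control sample 3. The ratio was set up after the values were known and carries no test. Atp5a1 and Atp5b have transcripts of 2572.5 and 1916 nt, while the median over the 16 ATP synthase genes is 730.25 nt. The part of transcript length in this ratio was not tested. All 39 genes together took 0.714%, 0.666% and 0.872% of TMM-scaled counts in YY1 siRNA samples, against 0.648%, 0.673% and 0.732% in control siRNA samples.

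**Figure D3:**
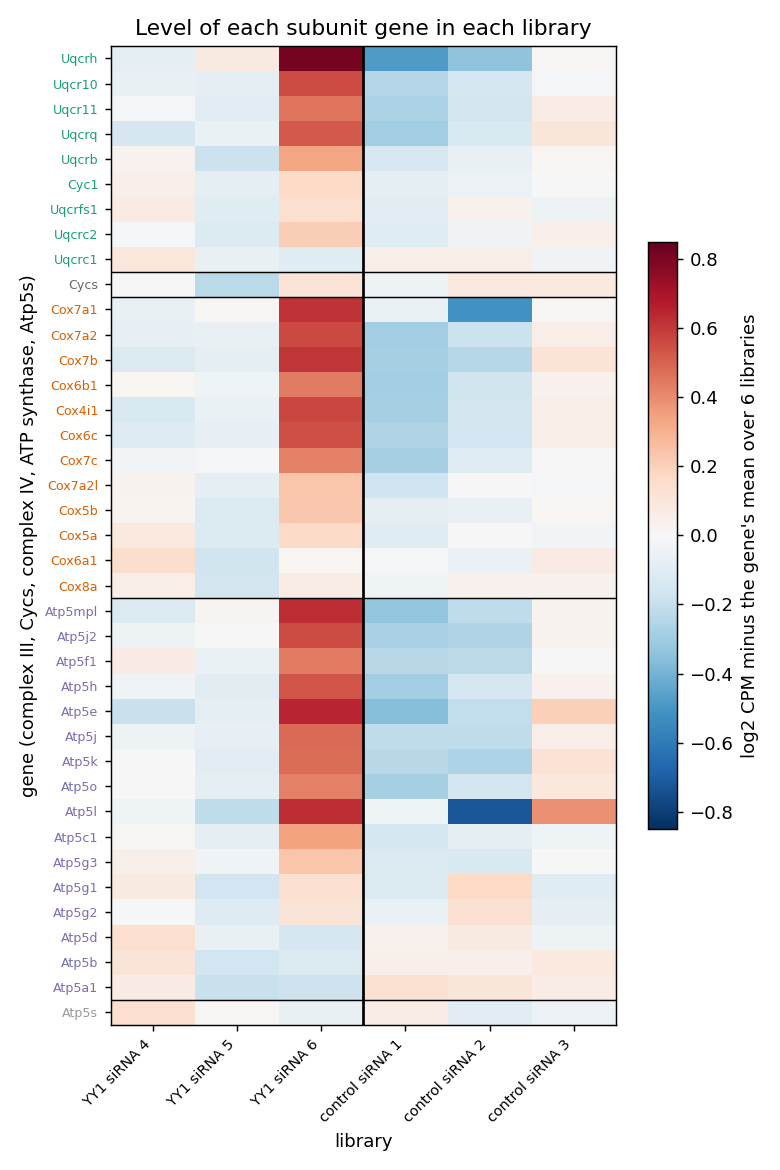
Log2 CPM of each gene in each library minus that gene's mean over the 6 libraries, with YY1 siRNA samples left of control siRNA samples and genes grouped by complex. The column of YY1 siRNA sample 6 is red for most genes, up to 0.81 for Uqcrh, while Atp5a1, Atp5b, Atp5d, Uqcrc1 and Atp5s lie below their own means there.

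Across libraries the 3 complexes moved together. As a median log2 deviation from each gene's mean over the 6 libraries, complex IV stood at -0.003, -0.072 and 0.43 in YY1 siRNA samples 4, 5 and 6, against -0.21, -0.13 and 0.037 in control siRNA samples 1, 2 and 3. ATP synthase stood at 0.002, -0.085 and 0.44 in YY1 siRNA samples, against -0.18, -0.15 and 0.033 in control siRNA samples. Complex III stood at -0.007, -0.084 and 0.34 in YY1 siRNA samples, against -0.14, -0.060 and 0.011 in control siRNA samples. In each complex the order from the top was sample 6, control 3 and then sample 4, and control sample 1 was the lowest. Control sample 3 lay above YY1 siRNA sample 5 for 36 of the 39 genes.

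Sample 6 was also the highest library for gene groups outside these complexes. The 76 tested cytosolic ribosomal protein genes stood at -0.026, -0.091 and 0.47 in YY1 siRNA samples, against -0.21, -0.11 and 0.024 in control siRNA samples. The 1054 tested genes with an annotated transcript of up to 1000 nt stood at -0.030, -0.046 and 0.27 in YY1 siRNA samples, against -0.12, -0.085 and 0.025 in control siRNA samples. The 11004 longer ones stayed between -0.025 and 0.018 in every library. The 3 tested nuclear-retained RNAs had another order below the top, at -0.61, 0.35 and 0.48 in YY1 siRNA samples 4, 5 and 6, against -0.099, -0.19 and 0.15 in control siRNA samples. YY1 siRNA sample 6 also had the highest share of counts assigned to no gene (11.3%). The part of that library's RNA in the values of the respiratory genes was not tested.

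**Figure D4:**
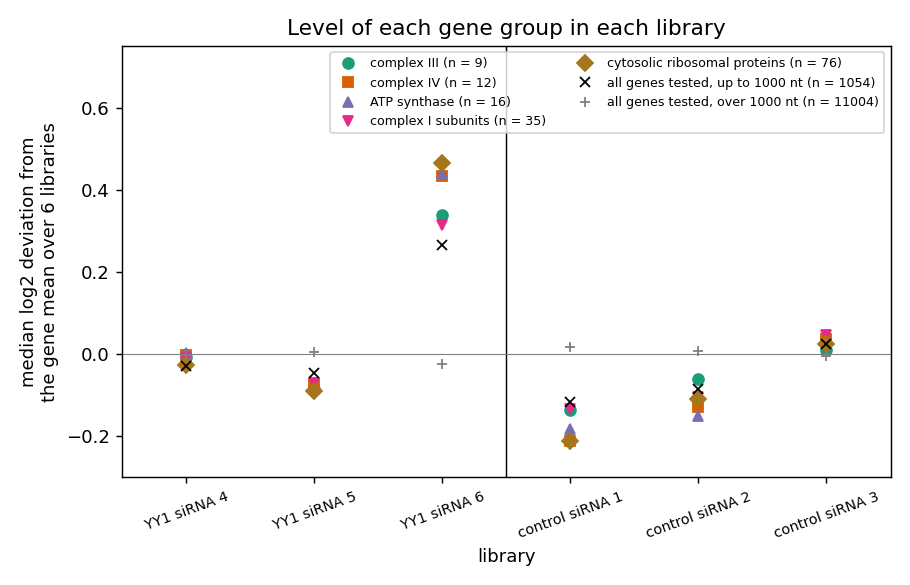
Median log2 deviation of each gene group in each library from the gene means over the 6 libraries, with YY1 siRNA samples left of control siRNA samples. Each group plotted other than the genes over 1000 nt is highest in YY1 siRNA sample 6 and lowest in control siRNA sample 1, while genes over 1000 nt stay near 0.

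The respiratory genes have short transcripts, 26 of the 39 up to 1000 nt, and among them the fitted change was larger for shorter transcripts. The 26 short members had a median log2 fold change of 0.26, with 23 above 0, and the 13 longer ones 0.062, with 9 above 0. Over all genes tested, the median was 0.18 for transcripts up to 600 nt, 0.12 for those from there to 1000 nt and 0.025 for the next class, up to 2000 nt. Fitted changes lay above 0 for 189 of 252, 622 of 802 and 1635 of 2903 genes in these classes. They did so for 1404 of 2954 genes over 2000 and up to 3000 nt, and for 2196 of 5147 longer ones. Spearman's rho between change and length was -0.556 over the 39 members and -0.196 over 12058 genes with a length, and -0.341 and -0.0508 without sample 6. These describe genes of the same 6 libraries, which are not independent of each other. When offsets for length and GC content entered the fit, the median of the 39 members was 0.062 and 27 lay above 0. In that fit the median was 0.046 for complex III, 0.076 for complex IV and 0.099 for ATP synthase.

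**Figure D5:**
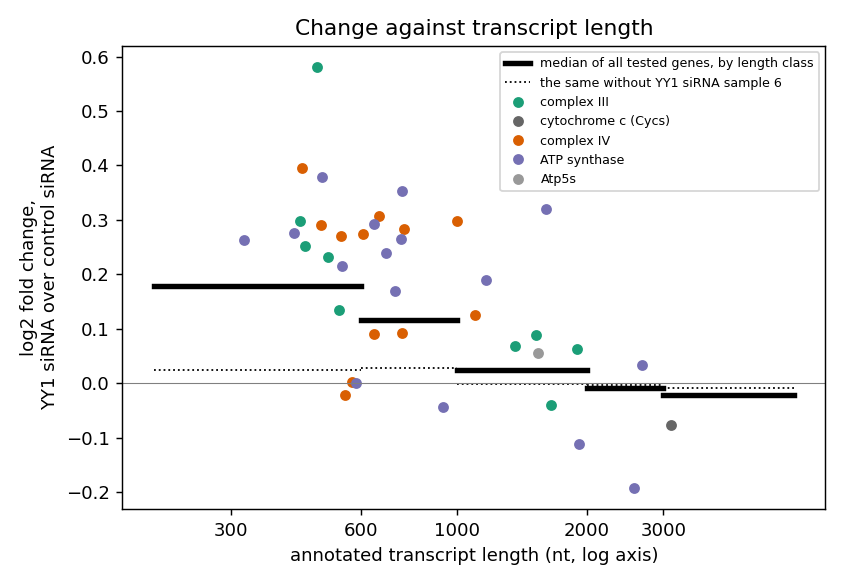
Log2 fold change, YY1 siRNA over control siRNA, of the 39 genes against annotated transcript length in nt (log axis), with the median of all tested genes in each length class (thick lines) and the same without YY1 siRNA sample 6 (dotted). The class medians of all genes are 0.18, 0.12 and 0.025 for the 3 shortest classes, against 0.26, 0.26 and 0.079 for the members in them.

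Apart from Yy1, the target of the siRNA, genes that build or control these complexes gave 0 calls. Of 6 tested assembly factors of complex III, 0 passed and 0 had an unadjusted p under 0.05, with a median log2 fold change of -0.004. The one with the smallest p, Uqcc2, had 186, 203 and 323 CPM in YY1 siRNA samples, against 150, 176 and 216 CPM in control siRNA samples (edgeR adjusted p = 0.541). Of 26 tested for complex IV, 0 passed with edgeR, and the median was 0.094. At an unadjusted edgeR p under 0.05, 1 was higher, Coa6 (5.38% of all genes), and 1 lower (5.46% of all genes). The lower one was Lrpprc, which stabilises mitochondrial mRNAs. It had 37.3, 38.9 and 34.1 CPM in YY1 siRNA samples, against 43.5, 41.5 and 44.7 CPM in control siRNA samples, so the groups did not overlap (log2 fold change -0.23, SE 0.0764, edgeR adjusted p = 0.318). Of the 26, the groups were apart for 1 with YY1 siRNA higher (7.36% of all genes) and for 3 with it lower (8.91% of all genes). The 6 tested assembly and inhibitor genes of ATP synthase gave 0 calls, with a median of 0.12. Tmem70, which helps to assemble the c ring, had 58.5, 67.3 and 94.1 CPM in YY1 siRNA samples, against 51.4, 54.7 and 64.8 CPM in control siRNA samples (edgeR adjusted p = 0.498).

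Among 13 tested regulators of respiratory genes, 1 passed, Yy1, whose fall is the knockdown itself. Ppargc1a, the gene of PGC-1alpha, had too few counts to be tested (21 in all). With Yy1 included, 2 of the 13 were higher (5.38% of all genes) and 2 lower (5.46%) at an unadjusted edgeR p under 0.05. The groups did not overlap for 2 with YY1 siRNA higher (7.36% of all genes) and 2 with it lower (8.91%). In both counts the higher genes were Gabpb2 and Esrra, and the lower ones were Yy1, the siRNA target, and Polrmt. Gabpb2, a partner of the ETS factor GABPA, had 78.1, 92.1 and 93.8 CPM in YY1 siRNA samples, against 66.1, 69.3 and 73.0 CPM in control siRNA samples, with the groups apart (log2 fold change 0.34, edgeR adjusted p = 0.187). Polrmt, the mitochondrial RNA polymerase, had 21.7, 21.8 and 20.9 CPM in YY1 siRNA samples, against 24.3, 26.6 and 24.3 CPM in control siRNA samples (log2 fold change -0.23, edgeR adjusted p = 0.362). Its groups were apart as well. Esrra had 62.8, 60.7 and 64.1 CPM in YY1 siRNA samples, against 54.4, 54.1 and 57.4 CPM in control siRNA samples (log2 fold change 0.18, edgeR adjusted p = 0.388). Nrf1, Gabpa and Tfam, which act on many nuclear or mitochondrial respiratory genes, had log2 fold changes of -0.097, -0.024 and 0.022. Complex I, the entry point of the chain, had a median of 0.18 over 35 tested subunit genes, with 0 calls, and 0.027 without sample 6. At an unadjusted p under 0.05, 6 of the 35 were higher (5.38% of all genes) and 0 lower (5.46% of all genes). Whether complex I differed from complexes III and IV and ATP synthase was not tested.

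Promoter windows from 250 bases before to 50 bases after an annotated start were given for 31 of the 39 genes (RefSeq, GRCm38.p6). They were searched on both strands for the YY1 letters AANATGGCG, the ETS letters CCGGAAG and the NRF1 letters GCGCA, any base and then GCGC, which bind factors known at respiratory gene promoters. The YY1 letters were found in 3 of the 31 genes (9.68%), against 6.16% of 9576 tested genes with a window and 2.38% of all 32851 windows. The ETS letters were found in 10 (32.3%, against 20.7% of tested genes and 8.86% of windows) and the NRF1 letters in 8 (25.8%, against 11.9% and 4.60%). No matches to different motifs overlapped in these genes. A match describes the letters and not binding, and Cox5b and Cox7c held none of the YY1 letters in these windows.

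The 3 promoters with the YY1 letters are shown from 100 bases before the start to 30 or 40 after it, beside that of Uqcrh, the gene with the largest fitted change, which holds the ETS letters. Capitals mark the YY1 letters, or in Uqcrh the ETS letters, on either strand.
Atp5b, chr10:128083207-128083336, plus strand: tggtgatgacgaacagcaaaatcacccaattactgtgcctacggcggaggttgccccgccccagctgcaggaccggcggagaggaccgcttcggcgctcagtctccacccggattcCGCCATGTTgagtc
Atp5j, chr16:84834947-84835076, minus strand: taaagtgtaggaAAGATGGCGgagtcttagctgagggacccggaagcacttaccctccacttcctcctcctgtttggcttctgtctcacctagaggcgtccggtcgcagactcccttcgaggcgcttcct
Atp5j2, chr5:145191502-145191641, minus strand: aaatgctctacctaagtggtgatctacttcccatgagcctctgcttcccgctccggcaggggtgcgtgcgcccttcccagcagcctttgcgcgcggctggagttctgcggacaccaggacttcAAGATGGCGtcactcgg
Uqcrh, chr4:116075041-116075170, minus strand: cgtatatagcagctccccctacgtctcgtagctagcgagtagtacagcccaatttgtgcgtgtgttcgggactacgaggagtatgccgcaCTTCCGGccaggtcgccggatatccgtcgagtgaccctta

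In Atp5b and Atp5j2 the YY1 letters lie downstream of the start, at bases 17 to 25 and 24 to 32, and cover the annotated start codon. In Atp5j they lie upstream, at -88 to -80, with ETS letters at -61 to -55. The genes that carry the YY1 letters had unlike values. The fitted log2 change was -0.11 for Atp5b (SE 0.0933, edgeR adjusted p = 0.654) and 0.35 for Atp5j2 (SE 0.169, edgeR adjusted p = 0.490). Atp5j, subunit F6 of the stalk, had 82.6, 81.1 and 119 CPM in YY1 siRNA samples, against 73.3, 73.2 and 88.6 CPM in control siRNA samples (log2 fold change 0.26, edgeR adjusted p = 0.546).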

How the data were processed

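The authors deposited 1 table of raw read counts per gene symbol for each of the 6 samples. The build mm10 and the tools STAR 2.6.1a and edgeR 3.30.0 are named in the submitters' processing notes. The counter, its annotation and its strand setting are not given. The 2 rows that name no gene (7.87% to 11.3% and 1.01% to 1.15% of a sample's counts) entered neither library sizes nor tests.

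The counts of all genes were tested two-sided in edgeR 4.0.16 under R 4.3.3 (glmQLFit and glmQLFTest), with filterByExpr, TMM and robust dispersion, and p-values were adjusted over 12148 genes by Benjamini and Hochberg at 0.05. The fit was tested on simulated counts with known changes, which held no shift of a library by transcript length. The alternatives were RLE factors, library size alone, 2 other filters, DESeq2 1.42.0, limma-voom 3.58.1 with and without sample weights, length and GC offsets (mgcv 1.9.3) and leaving out each sample. Gene models, transcript lengths (median of basic coding transcripts) and 50-base words came from GENCODE M21, to which 98.0% of symbols matched. Genes with values in every sample are core subunits, isoforms, and per complex the 4 with the smallest p. The other genes with values were added after these were seen. The members and lists were chosen with earlier results of these data known.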

Additional observations from a re-analysis of the deposited data

Results flagged for a closer look

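Counts that fell in no gene took no part in any comparison. They made up 10.7% of the counts of YY1 siRNA sample 5 and 11.3% of those of sample 6, more than in any control siRNA library (7.99%, 8.64% and 9.03%). In YY1 siRNA sample 4 they made up 7.87%. Atp5a1 and Atp5b were lowest in samples 5 and 6, while 31 of the 39 members were highest in sample 6. The part of this share in the values of the respiratory genes was not tested.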

How the results depend on the processing

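No paired analysis was run, because the labels give no sample number shared between the groups and no batch. Whether samples were paired between the groups is not stated. The count of members past the adjusted threshold was 0 under all 14 alternatives. Yy1 kept its direction and passed under each (log2 fold change -0.70 to -0.64, edgeR adjusted p up to 0.0439 without YY1 siRNA sample 5 or control siRNA sample 2). Members at an unadjusted p under 0.05, 2 with edgeR at the main settings, numbered 8 with DESeq2 (5.53% of all genes in that fit), 7 with library size alone (11.6%), 7 with limma-voom (11.5%), 5 with sample weights (14.9%) and 4 without the filter on low counts (9.40%). Without each sample in turn they numbered 0 to 12. There were 6 without YY1 siRNA sample 4 (19.1% of all genes in that fit), 12 without sample 5 (11.7%) and 0 without sample 6 (8.20%), and 1 without control siRNA sample 1 (5.40%), 0 without sample 2 (6.38%) and 8 without sample 3 (11.3%). The cause was not tested.

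The median of all 39 members was 0.062 to 0.24 under the other settings, and 0.023 without YY1 siRNA sample 6 to 0.33 without control siRNA sample 3. The range without each sample was 0.010 to 0.25 for complex III, 0.023 to 0.36 for complex IV and 0.052 to 0.36 for ATP synthase.

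Of 39 members, 25 kept their sign under every alternative. With length and GC offsets the fitted change was -0.11 for Uqcrb, -0.064 for Cox5a, -0.022 for Cox5b, -0.117 for Cox6a1 and -0.065 for Atp5s. Cox6a1 was also -0.020 with library size alone, -0.002 with limma-voom and -0.039 with sample weights, where Atp5g1 was -0.075. Atp5g2 was 0.006 with DESeq2, 0.007 with RLE, 0.008 with the filter of 1 CPM in 3 samples and 0.003 without a filter. Without each sample in turn, values of both signs were found for Atp5d (-0.12 to 0.008), Atp5e (-0.042 to 0.46), Atp5g1 (-0.031 to 0.13), Atp5g2 (-0.061 to 0.067), Atp5l (-0.078 to 0.52), Uqcrb (-0.021 to 0.25), Uqcrc2 (-0.040 to 0.13), Uqcrq (-0.011 to 0.36), Cox5b (-0.010 to 0.17), Cox6a1 (-0.071 to 0.084), Cox8a (-0.065 to 0.047) and Cycs (-0.16 to 0.015). The 95% intervals of 21 members stay within 1.5-fold, and those of the other 18 reach beyond it.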
